A study of Mus musculus with 4 samples.

Results

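Neurotransmitter release rests on vesicles that dock at a specialised patch of presynaptic membrane, the active zone, and fuse there when calcium enters. SNARE proteins on the vesicle and on the plasma membrane pull both membranes together, synaptotagmins sense calcium, complexins hold the SNARE complex ready, and large scaffold proteins keep vesicles and calcium channels in place. In the retina, photoreceptors and bipolar cells release glutamate from ribbon synapses, which tether vesicles to a plate-like ribbon, whereas amacrine cells use conventional synapses. The 46 genes described here encode SNARE, synaptic vesicle, active zone and ribbon proteins. They were taken by symbol from a fixed list, and all 46 were found among the 21828 genes analysed.

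RNA was sequenced from retinas of FVB/N mice that carry destabilized EGFP under a 2.5-kb piece of the Hes1 promoter. Hes1 is a Notch target that is made in progenitors and Müller glia, so the sort separates EGFP-positive cells (pHes1_EPC) from EGFP-negative cells (pHes1_ENC) by the activity of that promoter piece and not by a lineage mark. Cells were sorted at postnatal day 1 (P1) and at postnatal day 4 (P4), with no treatment at either age. Each of the 4 groups is 1 library, so no test between groups was possible and all differences below are descriptions of these libraries.

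Values are FPKM, read fragments scaled to transcript length and library size. Their sum over all genes differed between libraries, from 277433 in P1 pHes1_ENC to 372016 in P4 pHes1_EPC. Comparisons between libraries therefore depend in part on the scaling. The difference of a gene is that of log2(FPKM + 1) between libraries, and a gene is called more than 2-fold higher or lower when this difference is above 1 or below -1. Fold values are plain ratios of FPKM, and the range after a fold combines the 95% intervals that Cufflinks gave for both libraries, which cover counting error only. For 10 genes (Snap25, Vamp2, Napa, Syt1, Syt11, Cplx2, Cplx3, Cplx4, Syp and Rab3a) at least 1 FPKM lay outside its own interval, so their ranges are less certain.

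The libraries held 11458 to 12108 genes at 1 FPKM or more, and their depth, inferred from interval widths, was 14.5 to 15.7 in units of 1e6 reads. Müller glia and progenitor markers were higher in pHes1_EPC at both ages. The 6 Müller glia markers summed to 162 FPKM at P1 and 85.8 at P4 in pHes1_ENC, against 580 and 991 in pHes1_EPC. The 6 rod markers used here summed to 459 and 3414 FPKM in pHes1_ENC, against 33.0 and 687 in pHes1_EPC, so rod RNA was measured in both fractions. Haemoglobin genes made up 0.0768% and 0.169% of the summed FPKM in pHes1_ENC at P1 and P4, and 0.000238% and 0.00229% in pHes1_EPC. In sorted bulk RNA, fewer cells of a type and less RNA per cell cannot be told apart.

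Most presynaptic genes were lower in pHes1_EPC. At P1, 32 of 46 genes were more than 2-fold lower in pHes1_EPC, against 6.79% of all genes and 11.5% of the 12941 expressed genes, which reached 1 FPKM or more in some library. Only Syt11 and Sypl were more than 2-fold higher at P1, where 6.1% of all genes and 10.3% of those expressed were. At P4, 27 of 46 were more than 2-fold lower, against 5.42% of all genes and 9.15% of those expressed. At P4, 3 of 46 (Syt11, Sypl and Synpr) were more than 2-fold higher, against 9.85% and 16.6%. With a pseudocount of 0.1, or by plain ratio, this count was 6, and by plain ratio the added genes were Syt5, Rims1 and Erc1. The median difference of the 46 genes was -1.61 at P1 and -1.18 at P4 on the log2 scale, while the medians of the expressed genes were 0.02 and 0.15.

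The 46 genes together summed to 1151 FPKM in P1 pHes1_ENC and 347.5 in P1 pHes1_EPC, and to 2205 and 745 FPKM at P4. This was 0.415% of the FPKM of all genes in P1 pHes1_ENC and 0.726% in P4 pHes1_ENC, compared with 0.118% and 0.200% in pHes1_EPC. Syp had the highest FPKM of the 46 genes in both pHes1_ENC libraries and Syt11 in both pHes1_EPC libraries. In at least 1 library 25 genes reached 10 FPKM or more, and 44 reached 1 FPKM or more. Sv2c and Syn2 stayed below 1 everywhere.

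**Figure D1:**
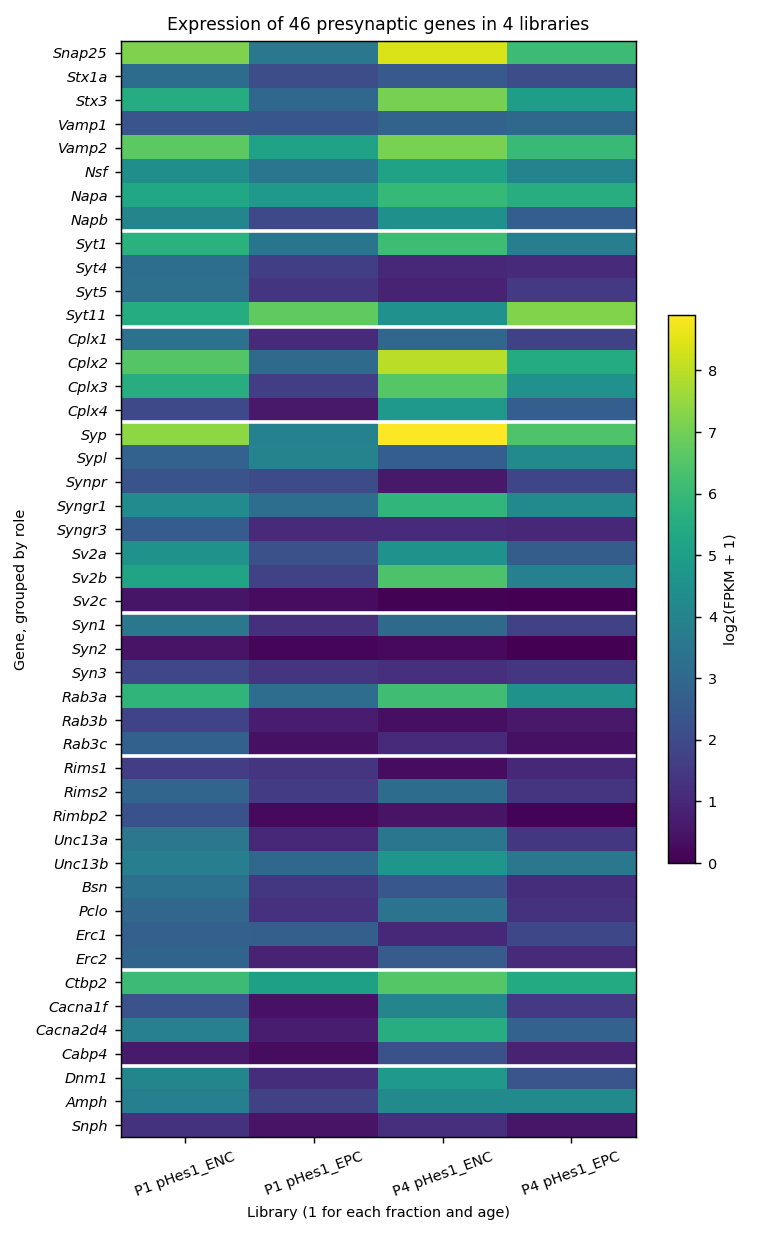
Heat map of log2(FPKM + 1) of the 46 genes (rows, grouped by role and divided by white lines) in the 4 libraries (columns). The pHes1_ENC columns are brighter for most rows, Syp reaches 478 FPKM in P4 pHes1_ENC, and Syt11 is brighter in the pHes1_EPC columns.

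**Figure D2:**
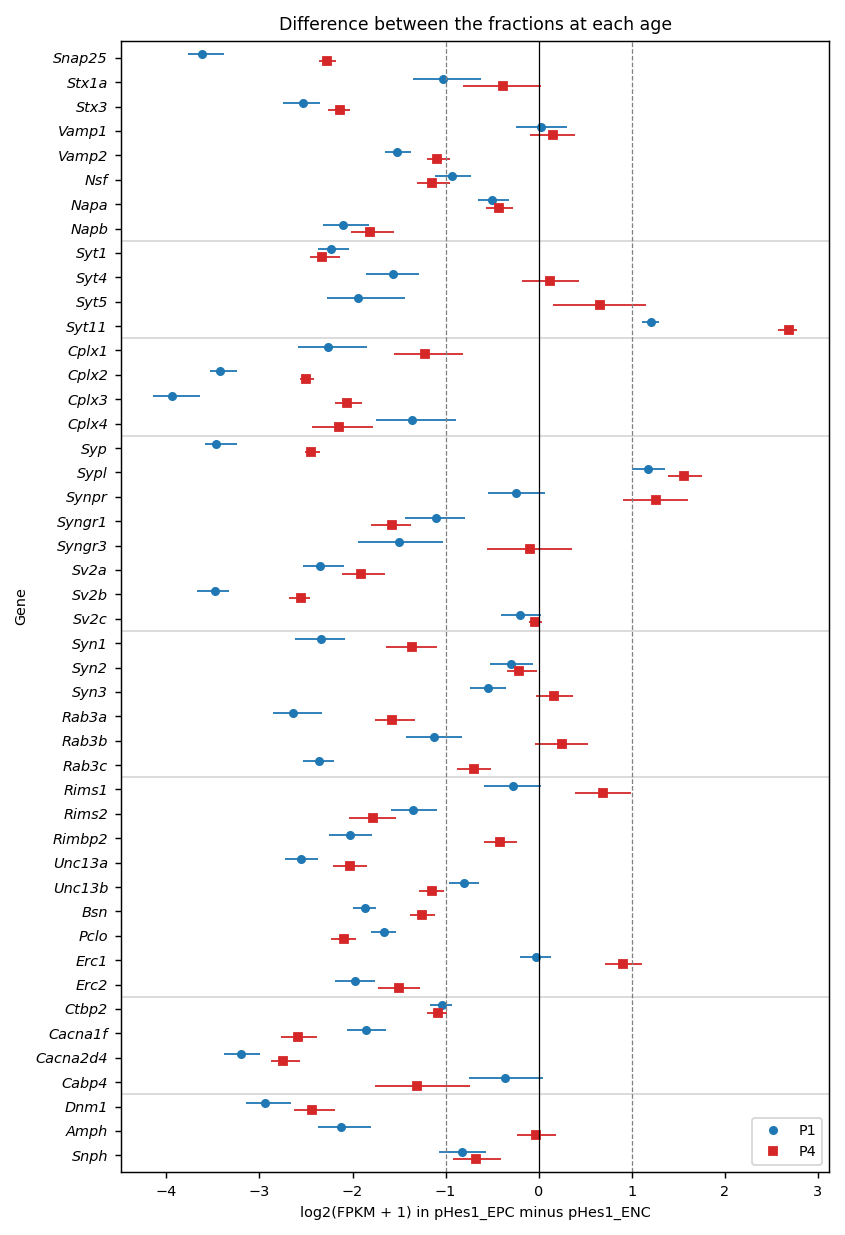
Difference of log2(FPKM + 1) between pHes1_EPC and pHes1_ENC for each of the 46 genes at P1 (circles) and P4 (squares), 1 library per group; horizontal lines span the ranges that the Cufflinks 95% intervals allow, and dashed lines mark a difference of 1 in either direction. At P1 32 genes lie left of the lower dashed line and 2 right of the upper one, and at P4 27 and 3 do.

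Both fractions were then compared with themselves across the ages. In pHes1_ENC 11 of 46 genes were more than 2-fold higher at P4 than at P1, against 2.77% of all genes and 4.67% of those expressed, and 9 were more than 2-fold lower, against 5.94% and 10%. In pHes1_EPC 13 of 46 genes were more than 2-fold higher at P4, against 4.17% and 7.04%, and 0 were lower, against 2.57% and 4.33%. By plain ratio 3 genes were more than 2-fold lower at P4 in pHes1_EPC (Sv2c, Syn2 and Rimbp2), each below 1 FPKM in both libraries. The genes that were higher at P4 in both fractions numbered 10, and they were Snap25, Stx3, Cplx2, Cplx3, Cplx4, Syp, Syngr1, Sv2b, Cacna1f and Cacna2d4. The share of all genes higher at P4 in both fractions was not counted. In pHes1_ENC Cabp4 was the 11th member of that group, and in pHes1_EPC Rab3a, Dnm1 and Amph joined the 10. By plain ratio Cabp4 was also higher at P4 in pHes1_EPC, by 3.90-fold (range 1.48 to 14.5), with both values below 1 FPKM. Cplx1 was at 2.003-fold there by plain ratio.

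**Figure D3:**
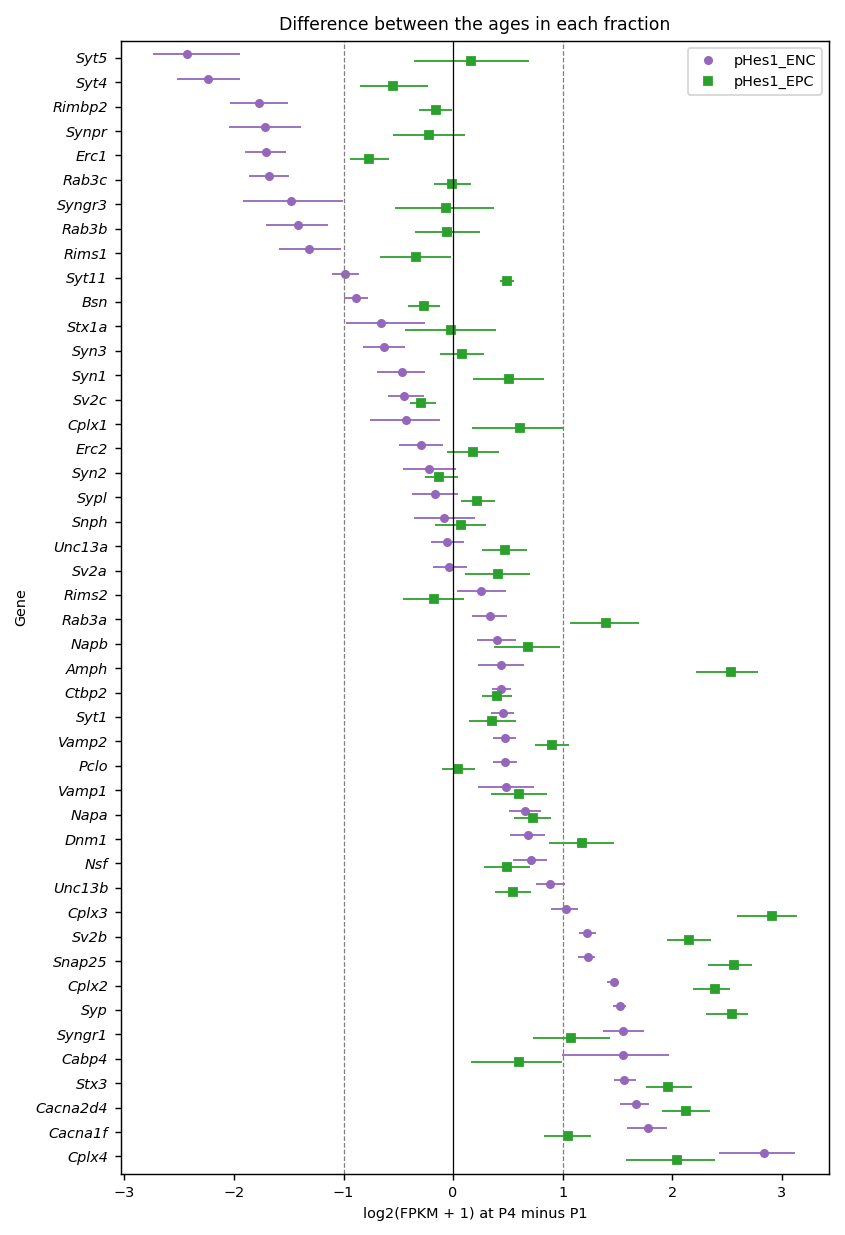
Difference of log2(FPKM + 1) between P4 and P1 for the 46 genes in pHes1_ENC (circles) and pHes1_EPC (squares), ordered by the pHes1_ENC value, 1 library per group; lines span the ranges that the Cufflinks 95% intervals allow and dashed lines mark a difference of 1. Of the circles 9 lie below -1 and 11 above 1, and 13 squares lie above 1 while 0 lie below -1.

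Among the SNARE proteins, which form the fusion complex, Snap25 (chr2:136539186-136608164 in mm9, plus strand) encodes the plasma membrane SNARE that is joined to the membrane by lipid anchors. Snap25 was 143 FPKM at P1 and 336 at P4 in pHes1_ENC, and 10.7 and 68.4 in pHes1_EPC. It was 13.3-fold lower in pHes1_EPC at P1 (range 11.3 to 15.0) and 4.91-fold lower at P4 (range 4.57 to 5.21). The smaller gap at P4 went with a 6.38-fold higher level at P4 than at P1 in pHes1_EPC, against 2.35-fold in pHes1_ENC.

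The syntaxins Stx3 and Stx1a are the transmembrane partners of Snap25, and Stx3 is known as the syntaxin of retinal ribbon synapses. Stx3 (chr19:11849608-11893893) was 45.1 FPKM at P1 and 135 at P4 in pHes1_ENC, and 6.94 and 30.0 in pHes1_EPC. Stx1a was 7.85 and 4.60 FPKM in pHes1_ENC, and 3.35 and 3.30 in pHes1_EPC. Stx3 thus made up 85.2% of their summed FPKM in P1 pHes1_ENC and 96.7% in P4 pHes1_ENC, and 67.5% and 90.1% in pHes1_EPC. For Stx1a the intervals of both fractions overlapped at P4, and at P1 its difference of -1.03 was close to the 2-fold limit.

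The vesicle SNAREs, called synaptobrevins, differed less between the fractions than Snap25 and Stx3. Vamp2 was 99.4 and 138 FPKM at P1 and P4 in pHes1_ENC, and 34.0 and 64.6 in pHes1_EPC, which is 2.92-fold lower at P1 and 2.14-fold lower at P4. Vamp1 was 4.14 and 6.17 FPKM in pHes1_ENC, and 4.25 and 6.96 in pHes1_EPC, with overlapping intervals at both ages. Vamp2 had the higher FPKM of the pair in every library.

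Nsf and the Napa and Napb adaptors take used SNARE complexes apart, and Napa serves membrane traffic in cells of many kinds while Napb is mainly neuronal. Nsf was 20.5 and 34.2 FPKM in pHes1_ENC and 10.3 and 14.9 in pHes1_EPC. Napa was 38.9 and 61.9 FPKM in pHes1_ENC and 27.3 and 45.96 in pHes1_EPC, within 2-fold at both ages. Napb was 15.7 and 21.0 FPKM in pHes1_ENC and 2.89 and 5.25 in pHes1_EPC, lower by 5.42-fold at P1 (range 4.29 to 6.62) and 3.99-fold at P4 (range 3.28 to 4.70). The neuronal adaptor therefore showed the wider gap of this pair at both ages, and the ranges of Napa, 1.25 to 1.60 (P1) and 1.22 to 1.496 (P4), did not meet those of Napb.

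The synaptotagmins went in different directions. Syt1, the calcium sensor of fast release, was 50.8 and 70.0 FPKM in pHes1_ENC and 10.1 and 13.2 in pHes1_EPC, lower by 5.05-fold at P1 and 5.31-fold at P4. Syt11 (chr3:88548623-88576521), a synaptotagmin that does not act as a calcium sensor for fusion, was 44.6 and 22.0 FPKM in pHes1_ENC but 105 and 147 in pHes1_EPC. Syt11 was 2.34-fold higher in pHes1_EPC at P1 and 6.71-fold higher at P4, and it had the highest FPKM of the 4 synaptotagmins in both pHes1_EPC libraries. In pHes1_ENC its P4 level was 0.493 of its P1 level, while in pHes1_EPC it was 1.41 times the P1 level.

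Syt4 and Syt5 had their highest levels in P1 pHes1_ENC. Syt4 was 8.32 and 0.977 FPKM at P1 and P4 in pHes1_ENC, and 2.14 and 1.16 in pHes1_EPC. Syt5 was 8.77 and 0.812 FPKM in pHes1_ENC, and 1.55 and 1.87 in pHes1_EPC. The difference of Syt5 was -1.94 at P1 and 0.66 at P4 on the log2 scale, with intervals apart at both ages, and by plain ratio it was 2.30-fold higher in pHes1_EPC at P4, so the order of the fractions was opposite at the 2 ages.

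Complexins clamp and promote SNARE-driven fusion, with Cplx1 and Cplx2 known from conventional synapses and Cplx3 and Cplx4 from retinal ribbon synapses. Cplx2 (chr13:54472713-54485278) was 90.0 FPKM at P1 and 250.3 at P4 in pHes1_ENC, and 7.46 and 43.3 in pHes1_EPC. Cplx3 (chr9:57447799-57454088) was 45.7 and 94.2 FPKM in pHes1_ENC, and 2.04 and 21.9 in pHes1_EPC. Cplx4 was 2.88 and 26.7 FPKM in pHes1_ENC, and 0.515 and 5.25 in pHes1_EPC. These 3 complexins were higher at P4 than at P1 in both fractions, by 2.06-fold to 9.29-fold in pHes1_ENC and by 5.81-fold to 10.7-fold in pHes1_EPC.

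Cplx1 differed from the other complexins. It was 9.23 and 6.59 FPKM at P1 and P4 in pHes1_ENC, and 1.13 and 2.26 in pHes1_EPC. Its share of the summed complexin FPKM in pHes1_ENC was 6.25% at P1 and 1.75% at P4, while that of Cplx4 was 1.95% and 7.08%. Cplx2 had the highest FPKM of the 4 complexins in every library. At P1 the gap between the fractions was 22.4-fold for Cplx3 (range 17.3 to 27.9), 12.1-fold for Cplx2 (range 10.5 to 13.2), 8.17-fold for Cplx1 (range 5.38 to 12.1) and 5.59-fold for Cplx4 (range 3.04 to 11.1).

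**Figure D4:**
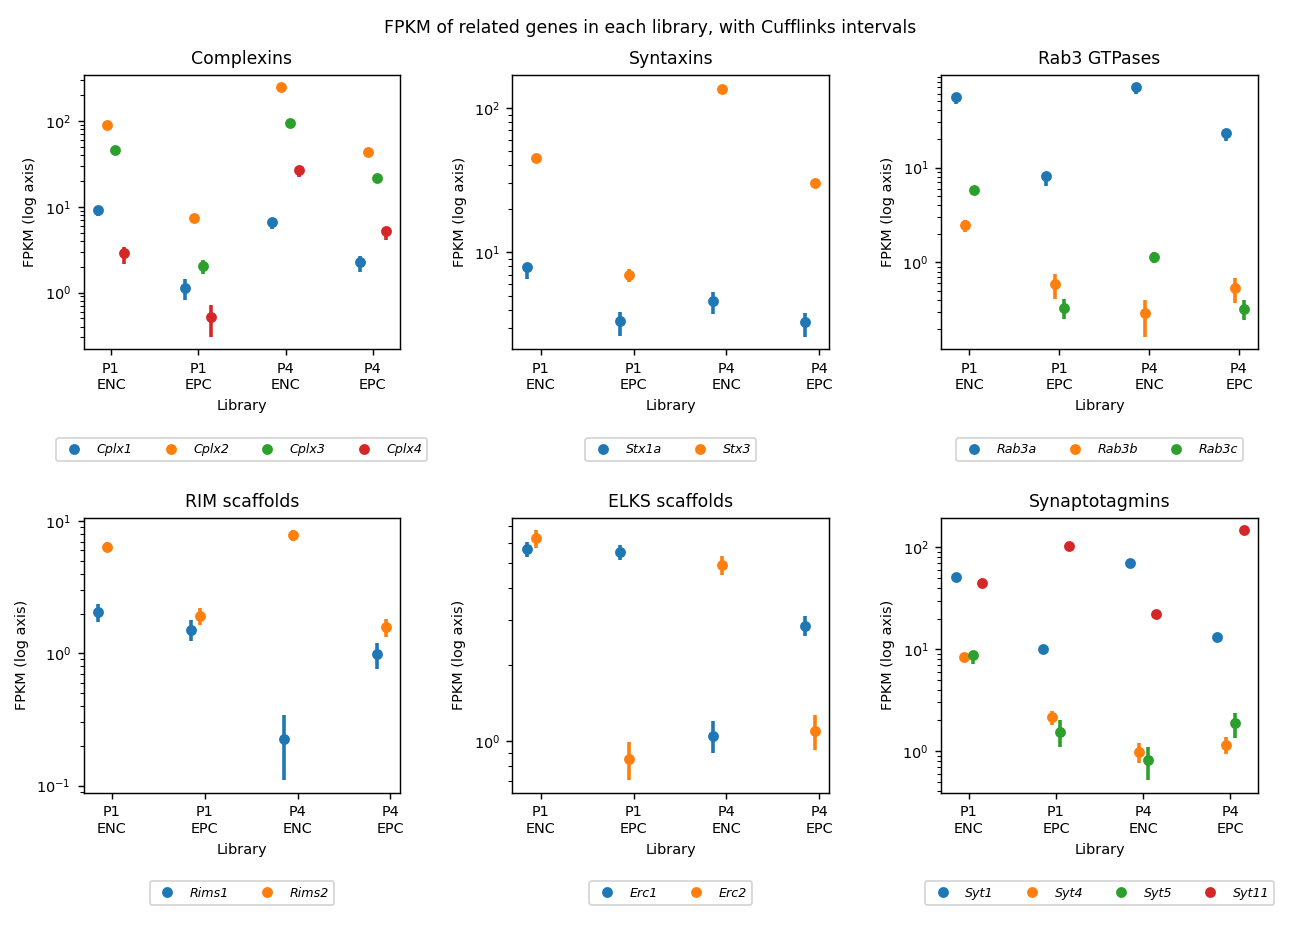
FPKM on a log axis of complexins, syntaxins, Rab3 GTPases, RIM scaffolds, ELKS scaffolds and synaptotagmins in each of the 4 libraries (x axis, 1 library per group); points are FPKM and vertical lines the Cufflinks 95% intervals, some of which lie below their point. Stx3 and Rims2 exceed Stx1a and Rims1 in each library, Erc1 exceeds Erc2 in pHes1_EPC but not in pHes1_ENC, and Syt11 is the highest synaptotagmin in both pHes1_EPC libraries.

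Of the proteins that span the vesicle membrane, synaptophysin (Syp, chrX:7215706-7230382, plus strand) is abundant and widely used as a marker of presynaptic terminals. Syp was 166 FPKM at P1 and 478 at P4 in pHes1_ENC, and 14.1 and 86.9 in pHes1_EPC. It was lower in pHes1_EPC by 11.8-fold at P1 (range 10.05 to 12.9) and 5.50-fold at P4 (range 5.16 to 5.75). Its broadly expressed relative Sypl was 6.05 and 5.27 FPKM in pHes1_ENC and 14.9 and 17.6 in pHes1_EPC, 2.47-fold and 3.34-fold higher there. Synaptoporin (Synpr), the third gene of this family, was 4.01 and 0.527 FPKM in pHes1_ENC and 3.25 and 2.65 in pHes1_EPC. Syp thus made up 94.3% of the summed FPKM of these 3 genes in P1 pHes1_ENC and 98.8% in P4 pHes1_ENC, and 43.6% and 81.1% in pHes1_EPC.

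The synaptogyrins are vesicle proteins related to synaptophysin. Syngr1 was 18.7 and 56.7 FPKM at P1 and P4 in pHes1_ENC, and 8.20 and 18.4 in pHes1_EPC. Syngr3 was 5.03 and 1.16 FPKM in pHes1_ENC, and 1.13 and 1.03 in pHes1_EPC. Both genes were therefore lower in pHes1_EPC at P1, but in pHes1_ENC their levels went in opposite directions with age.

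SV2 proteins are vesicle glycoproteins that regulate release. Sv2b (chr7:82259781-82454148, minus strand) was 35.9 FPKM at P1 and 85.0 at P4 in pHes1_ENC, and 2.31 and 13.7 in pHes1_EPC. Sv2a was 22.7 and 22.1 FPKM in pHes1_ENC, and 3.64 and 5.15 in pHes1_EPC. Sv2b made up 60.9% of the summed SV2 FPKM in P1 pHes1_ENC and 79.3% in P4 pHes1_ENC. In pHes1_EPC its share was 37.3% at P1 and 72.6% at P4. Sv2c was at most 0.405 FPKM.

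Synapsins tether vesicles to each other in the reserve pool of conventional synapses and are known to be missing from ribbon terminals. Syn1 was 10.7 and 7.45 FPKM at P1 and P4 in pHes1_ENC, and 1.31 and 2.28 in pHes1_EPC. Syn3 was 2.69 and 1.38 FPKM in pHes1_ENC, and 1.53 and 1.68 in pHes1_EPC, and Syn2 was at most 0.369 in any library. None of the 3 synapsins was more than 2-fold higher at P4 than at P1 in either fraction. In the GENCODE annotation, exons of Syn1 overlap those listed under Araf, and exons of Syn3 those under Timp3. Reads of these pairs may not be fully separated, but strands and the deposited positions of Araf and Timp3 were not compared.

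Rab3 GTPases sit on vesicles and link them to the active zone. Rab3a was 55.8 FPKM at P1 and 70.6 at P4 in pHes1_ENC, and 8.12 and 23.0 in pHes1_EPC. Rab3c was 5.85 and 1.14 FPKM in pHes1_ENC, and 0.330 and 0.322 in pHes1_EPC. Rab3b was 2.45 and 0.290 FPKM in pHes1_ENC, and 0.587 and 0.531 in pHes1_EPC. Rab3a therefore made up 87.1% of the summed FPKM of Rab3a, Rab3b and Rab3c in P1 pHes1_ENC and 98.0% in P4 pHes1_ENC. Rab3d, which is not among the 46 genes, was left out of these sums. Its level was 5.09 and 7.74 FPKM at P1 and P4 in pHes1_ENC, and 1.82 and 2.02 in pHes1_EPC. In the GENCODE annotation, exons of Rab3a overlap those listed under Mpv17l2, and exons of Rab3b those under 8030443G20Rik. Strands and the deposited positions of these partners were not compared, so an overlap of the counted genes is not shown.

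The active zone scaffolds organise docking and priming. RIM proteins bind Rab3 and calcium channels. Rims2 was 6.42 and 7.86 FPKM at P1 and P4 in pHes1_ENC, and 1.91 and 1.57 in pHes1_EPC. Rims1 was 2.04 and 0.223 FPKM in pHes1_ENC, and 1.50 and 0.982 in pHes1_EPC. Rims2 made up 75.9% of their summed FPKM in P1 pHes1_ENC and 97.2% in P4 pHes1_ENC, and 55.9% and 61.6% in pHes1_EPC. At P4 Rims1 was 4.40 times as high in pHes1_EPC as in pHes1_ENC, but both values were below 1 FPKM.

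Rimbp2 links RIM proteins to calcium channels. It was 3.78 FPKM in P1 pHes1_ENC and below 0.4 in the other 3 libraries, at 0.398 in P4 pHes1_ENC and at 0.170 and 0.0503 in the P1 and P4 pHes1_EPC libraries. Munc13 proteins prime vesicles by opening syntaxin. Unc13a was 10.6 and 10.2 FPKM in pHes1_ENC, and 0.973 and 1.74 in pHes1_EPC. Unc13b was 13.0 and 24.8 FPKM in pHes1_ENC, and 7.03 and 10.7 in pHes1_EPC. The gap at P1 was 10.9-fold for Unc13a (range 8.94 to 13.3) and 1.85-fold for Unc13b (range 1.64 to 2.095).

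Bassoon (Bsn) and piccolo (Pclo) are very large scaffold proteins, and bassoon is known to anchor the photoreceptor ribbon. Bsn was 8.88 and 4.35 FPKM at P1 and P4 in pHes1_ENC, and 1.70 and 1.25 in pHes1_EPC. Pclo was 6.61 and 9.59 FPKM in pHes1_ENC, and 1.41 and 1.49 in pHes1_EPC. In both genes the difference between the fractions exceeded 2-fold at both ages, while in pHes1_ENC Bsn at P4 was 0.490 of its P1 level and Pclo was 1.45 times its P1 level, neither of which passed the limit on the log2(FPKM + 1) scale.

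The ELKS proteins are further scaffolds, of which Erc1 is widely expressed and Erc2 mainly neuronal. Erc1 was 5.68 and 1.05 FPKM at P1 and P4 in pHes1_ENC, and 5.53 and 2.84 in pHes1_EPC. Erc2 was 6.27 and 4.94 FPKM in pHes1_ENC, and 0.849 and 1.10 in pHes1_EPC. The share of Erc2 in their summed FPKM was 52.5% in P1 pHes1_ENC and 82.5% in P4 pHes1_ENC, and it was 13.3% and 27.9% in pHes1_EPC.

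The calcium channel of photoreceptor terminals is built from the pore subunit Cacna1f and the auxiliary subunit Cacna2d4, and Cabp4 is a calmodulin-like protein that modulates it. Cacna1f (chrX:7184229-7212322) was 3.85 FPKM at P1 and 15.7 at P4 in pHes1_ENC, and 0.344 and 1.78 in pHes1_EPC. Cacna2d4 (chr6:119186544-119302425) was 13.7 and 45.8 FPKM in pHes1_ENC, and 0.599 and 6.00 in pHes1_EPC. Cabp4 was 0.562 and 3.57 FPKM in pHes1_ENC, and 0.217 and 0.845 in pHes1_EPC. From P1 to P4 the level in pHes1_ENC differed by more than 2-fold, upward, for all 3 genes. At P4 they were lower in pHes1_EPC by 8.83-fold, 7.64-fold and 4.23-fold.

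Cacna1f and Syp are neighbours on the X chromosome in mm9. They lie on the same strand with 3383 bases between the end of Cacna1f and the start of Syp, and 0 other gene lines fall between them. Both were higher in pHes1_ENC than in pHes1_EPC at each age, and higher at P4 than at P1 in each fraction.

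Ctbp2 gives rise to both a transcriptional corepressor made in many cells and RIBEYE, the main protein of the synaptic ribbon, from an internal start. The deposited value merges both products. Ctbp2 was 67.6 FPKM at P1 and 92.0 at P4 in pHes1_ENC, and 32.4 and 43.0 in pHes1_EPC. The gap was 2.09-fold at P1 and 2.14-fold at P4, just past the 2-fold limit, with differences of -1.04 and -1.08 on the log2 scale. In the GENCODE annotation, exons of Ctbp2 overlap exons listed under the name Fgfr2. The deposited position of Fgfr2 was not compared, so an overlap of the counted genes is not shown.

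After fusion, vesicle membrane is retrieved by endocytosis. Dnm1, the GTPase that cuts vesicles off the membrane, was 16.1 and 26.3 FPKM at P1 and P4 in pHes1_ENC, and 1.22 and 4.04 in pHes1_EPC. Amphiphysin (Amph, chr13:19040240-19242784), which recruits dynamin, was 13.3 and 18.3 FPKM in pHes1_ENC, and 2.28 and 18.0 in pHes1_EPC. At P1 Amph was thus 5.82-fold lower in pHes1_EPC, and at P4 its intervals overlapped between the fractions. Its level in pHes1_EPC was 7.91 times as high at P4 as at P1, against 1.38 times in pHes1_ENC. Syntaphilin (Snph), an anchor of axonal mitochondria, was 1.44 and 1.31 FPKM in pHes1_ENC, and 0.382 and 0.455 in pHes1_EPC.

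The 24 genes that were more than 2-fold lower in pHes1_EPC at both ages included every complexin, Syt1, Snap25, Stx3, Vamp2, Napb, Syp, Sv2a, Sv2b and the ribbon channel genes Cacna1f and Cacna2d4. At P1 only, 8 genes were (Stx1a, Syt4, Syt5, Syngr3, Rab3b, Rab3c, Rimbp2 and Amph), and at P4 only, 3 (Nsf, Unc13b and Cabp4). The shares of all genes lower at both ages or at 1 age only were not counted, so these counts have no background beside them. On the log2(FPKM + 1) scale Vamp1, Napa, Sv2c, Syn2, Syn3, Rims1, Erc1 and Snph passed the limit at neither age. This scale understates the folds of genes with low FPKM. By plain ratio 35 genes were more than 2-fold lower in pHes1_EPC at P1 and 32 at P4. Snph was 3.77-fold lower at P1 and 2.89-fold lower at P4, and Syn2, below 1 FPKM, 3.15-fold and 8.42-fold. Cabp4 at P1 (2.59-fold) and Sv2c at P4 were also lower, each with overlapping intervals. Rab3c and Rimbp2 were also lower at P4, by 3.53-fold and 7.91-fold. Erc1 and Rims1 were 2.72-fold and 4.40-fold higher at P4. By role, 4 of 4 complexins, 5 of 8 SNARE and disassembly genes, and 6 of 9 active zone scaffolds were more than 2-fold lower in pHes1_EPC at each age. In the other roles the count differed between P1 and P4. It was 3 and 1 of 4 synaptotagmins, 4 and 2 of 6 synapsin and Rab3 genes, and 5 and 4 of 8 vesicle membrane proteins. For the ribbon and calcium channel genes it was 3 and 4 of 4, and for endocytosis and syntaphilin 2 and 1 of 3. Just past the 2-fold limit at P1 stood Stx1a at -1.03, and just short of it Nsf at -0.93. Passing the limit at P1 and not at P4, or the reverse, does not show that the ages differ.

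Of the 8 genes lower at P1 only, 6 (Syt4, Syt5, Syngr3, Rab3b, Rab3c and Rimbp2) were also among the 9 genes that were more than 2-fold lower at P4 than at P1 in pHes1_ENC. Those 9 genes, which also include Synpr, Rims1 and Erc1, reached 0.0926 to 0.231 of their P1 FPKM at P4 in pHes1_ENC. In pHes1_EPC the same 9 reached 0.296 to 1.20 of their P1 FPKM. Because the 9 genes were chosen by their pHes1_ENC values, the low ratios in pHes1_ENC follow from that choice. Both lists draw on the same pHes1_ENC libraries, so their overlap is not independent. The amacrine markers Gad1, Gad2 and Slc32a1 were 16.2, 25.0 and 20.4 FPKM in P1 pHes1_ENC and 1.17, 2.78 and 2.84 in P4 pHes1_ENC, while the fourth measured amacrine marker, Slc6a9, was 19.1 and 62.6 FPKM. Tfap2a and Tfap2b were also on the amacrine list but were not found under those names, so they are not part of the sums. The 4 amacrine markers summed to 80.6 and 69.4 FPKM at P1 and P4 in pHes1_ENC and to 8.70 and 16.4 in pHes1_EPC, none being at 0. The 6 ganglion cell markers summed to 26.7 and 3.43 FPKM in pHes1_ENC and to 12.4 and 3.18 in pHes1_EPC, none being at 0. Their part in the result was not tested.

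The 11 genes that were more than 2-fold higher at P4 in pHes1_ENC stood at 0.113 to 0.324 of the pHes1_ENC level in P4 pHes1_EPC, with a median of 0.196. At P1 the ratios were 0.0437 to 0.438 with a median of 0.0849. The pHes1_ENC levels that chose these genes are also the denominators of their ratios. A high P4 level in pHes1_ENC favours a low P4 ratio, so the ratios are not independent of the choice. The 6 rod markers (Nrl, Nr2e3, Sag, Gnat1, Pde6b and Pde6g) had ratios of 0.129 to 0.256 with a median of 0.205 at P4, and 0.0518 to 0.552 with a median of 0.0760 at P1. In pHes1_ENC, all 6 rod markers were more than 2-fold higher at P4 than at P1, and none of them was at 0 in any library. The 5 cone markers summed to 225 FPKM at P1 and 717 at P4 in pHes1_ENC, and to 23.8 and 227.9 in pHes1_EPC, none being at 0. Most of this was Gngt2, at 202 and 692 FPKM in pHes1_ENC and 19.9 and 216 in pHes1_EPC, which gives ratios of 0.0986 at P1 and 0.313 at P4. Of the 5 cone markers 2, Arr3 and Gngt2, were more than 2-fold higher at P4 than at P1 in pHes1_ENC, by 3.63-fold and 3.43-fold. The part of rods and cones in the levels of the 11 genes was not tested.

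**Figure D5:**
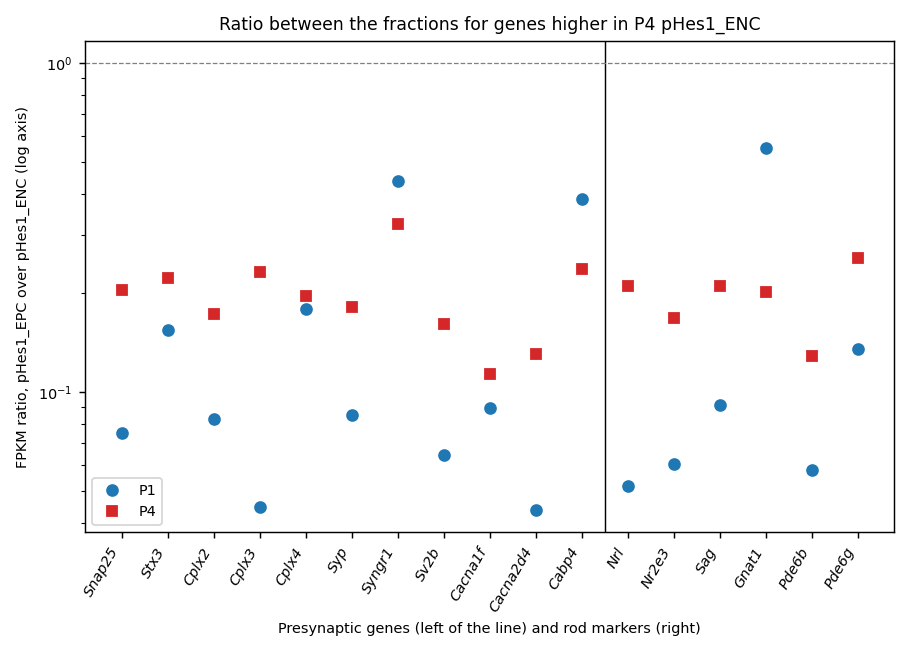
FPKM in pHes1_EPC divided by FPKM in pHes1_ENC (log axis) at P1 (circles) and P4 (squares) for the 11 presynaptic genes that were more than 2-fold higher at P4 than at P1 in pHes1_ENC and for the 6 rod markers, 1 library per group. The P4 ratios lie between 0.113 and 0.324 for the presynaptic genes and between 0.129 and 0.256 for the rod markers. The pHes1_ENC levels used as denominators also chose the 11 genes.

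Promoter sequences were examined because 10 of the 46 genes were higher at P4 than at P1 in both fractions. RefSeq windows (GRCm38.p6) were at hand for 36 of the 46 genes, 45 windows in all, and the 250 bases before each start were searched on both strands. Snap25, Vamp2, Syt4, Syt5, Cplx4, Syngr3, Syn3, Rims2, Cacna2d4 and Cabp4 had no window. The letters TAATCC, or GGATTA on the other strand, are those bound by photoreceptor homeobox factors such as Crx. They occurred in 4 of the 45 windows (8.89%), against 6.25% of the 32851 windows of all genes. Of the 10 windows belonging to genes more than 2-fold higher at P4 in pHes1_ENC, 3 held them, 1 of Syp and 2 of Sv2b, and the fourth window belongs to Ctbp2. These 4 windows, shown because they hold the letters, are printed 5′ to 3′ on the strand of the gene, with TAATCC or GGATTA in capitals.
Syp, chrX:7638330-7638579, plus strand: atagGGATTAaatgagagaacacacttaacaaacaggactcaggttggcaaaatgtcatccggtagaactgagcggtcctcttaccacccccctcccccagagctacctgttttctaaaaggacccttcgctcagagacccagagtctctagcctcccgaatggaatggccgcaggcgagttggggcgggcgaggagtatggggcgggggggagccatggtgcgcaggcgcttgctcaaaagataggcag
Sv2b, chr7:75302610-75302859, minus strand: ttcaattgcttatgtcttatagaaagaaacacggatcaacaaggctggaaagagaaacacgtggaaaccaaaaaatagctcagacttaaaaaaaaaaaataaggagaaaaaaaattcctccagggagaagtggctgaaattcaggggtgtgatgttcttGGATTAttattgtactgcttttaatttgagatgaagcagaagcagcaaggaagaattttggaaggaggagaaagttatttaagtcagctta
Sv2b, chr7:75309263-75309512, minus strand: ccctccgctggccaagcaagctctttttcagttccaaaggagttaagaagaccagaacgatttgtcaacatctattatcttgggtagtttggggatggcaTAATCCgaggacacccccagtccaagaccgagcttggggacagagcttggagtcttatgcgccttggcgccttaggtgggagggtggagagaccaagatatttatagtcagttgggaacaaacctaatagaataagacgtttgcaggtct
Ctbp2, chr7:133015248-133015497, minus strand: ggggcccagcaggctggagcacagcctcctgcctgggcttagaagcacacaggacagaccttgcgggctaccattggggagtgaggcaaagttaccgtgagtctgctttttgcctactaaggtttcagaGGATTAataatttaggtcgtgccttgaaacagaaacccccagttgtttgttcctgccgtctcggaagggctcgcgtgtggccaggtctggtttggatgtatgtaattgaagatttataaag

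The windows of Sv2b and Ctbp2 lie before 2 of 4 annotated starts of Sv2b and 1 of 2 of Ctbp2, and the deposited FPKM does not say which start was used. The E-box letters CAGCTG, which read the same on both strands, occurred in 12 of the 45 windows (26.7%) against 13.0% of all windows. CAGATG or CATCTG occurred in 3 (6.67%) against 14.4%, and TGCTGA or TCAGCA, part of the site of Maf family factors, in 3 (6.67%) against 16.1%. Some genes have several windows, so windows are not independent, and a match of letters does not show that a factor binds there.

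A further 86 genes of vesicle fusion, calcium sensing, vesicle membranes, active zones and endocytosis were counted on the same scale. Of these, 29 were more than 2-fold lower in pHes1_EPC at P1 and 18 at P4, 16 of them at both ages, while 4 and 8 were more than 2-fold higher, 4 of them at both ages. The lower genes were 33.7% of the list at P1 and 20.9% at P4. Of all genes 6.79% and 5.42% were lower, and of those expressed 11.5% and 9.15%. The higher genes were 4.65% and 9.30% of the list, against 6.1% and 9.85% of all genes and 10.3% and 16.6% of those expressed. Their share thus exceeded neither. The shares of all genes past the limit at both ages were not counted. The median difference of the 86 genes was -0.51 at P1 and -0.16 at P4. Unc119, a lipid-binding trafficking protein abundant in photoreceptors, was 192 and 668 FPKM at P1 and P4 in pHes1_ENC, and 25.1 and 167 in pHes1_EPC. Doc2b, a high-affinity calcium sensor, was 25.7 and 80.1 FPKM in pHes1_ENC, and 1.44 and 9.76 in pHes1_EPC. Bin1, a relative of amphiphysin, was 106 and 229.8 FPKM in pHes1_ENC, and 10.1 and 45.8 in pHes1_EPC. These 3 genes thus showed the order of the fractions seen for Snap25 and Syp.

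The liprin Ppfia2 was 18.4 and 27.2 FPKM in pHes1_ENC, and 1.73 and 5.41 in pHes1_EPC. The vesicle protein Svop was 13.5 and 17.2 FPKM in pHes1_ENC, and 0.754 and 3.50 in pHes1_EPC. The opposite order was seen for Vamp3 and Vamp8, SNAREs of endosomal and secretory traffic outside synapses, and for the broadly expressed synaptogyrin Syngr2. Vamp3 was 15.9 and 15.4 FPKM in pHes1_ENC, and 37.6 and 38.8 in pHes1_EPC. Vamp8 was 5.74 and 11.0 FPKM in pHes1_ENC, and 15.8 and 31.3 in pHes1_EPC. Syngr2 was 6.77 and 5.94 FPKM in pHes1_ENC, and 19.9 and 17.0 in pHes1_EPC, so it shared the direction of Sypl and not that of Syngr1.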

How the data were processed

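RNA from pHes1_EPC and pHes1_ENC sorted at P1 and P4 was measured in 4 libraries, grouped by fraction and age. The authors sequenced 36-base single-end reads (bcl2fastq 1.8.4 per the submitters' processing notes), aligned them to mm9 with TopHat 2.0.8b, with at most 50 alignments kept per read, and they deposited gene FPKM with 95% intervals from Cufflinks 2.1.1. Strand handling in the counting is not given in the sources used here. These FPKM were used without further scaling. Of 23021 gene lines, 787 of small RNAs were left out, and 235 symbols with several lines were represented by their most highly expressed line, giving 21828 genes. Each of the 46 genes had a single line with status OK in all libraries.

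Differences are those of log2(FPKM + 1), called past 1, with no test because each group has 1 library. Overlaps of exons come from the GENCODE annotation of mm9. The depth was inferred from interval widths, and the intervals cover counting error only. Python 3.11.15, numpy 2.4.6, pandas 2.3.3 and matplotlib 3.10.9 were used. Counts of the 21828 genes were simulated with counting noise only, and some genes at 10 FPKM or more were changed 4-fold or 8-fold, up or down. Of these, 100% of 50 genes at each of 4 fold sizes were called in each comparison. With changes this far past the limit, that outcome checks the code only. It does not cover genes below 10 FPKM, smaller changes, or variation between animals or sorts.

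The members, lists and rules were chosen with earlier results of these data known. Each of the 46 genes is named. Of the 86 other genes, those past 2-fold in the same direction at both ages with an FPKM of at least 10 are named, up to 5 in each direction by the smaller difference. Rab3d is named as well, beside the Rab3 sums. Alternatives were other pseudocounts, a filter on low values, 4 other scalings, gene status, summed lines and intervals that do not overlap. A rod marker and a gene of the further list are not reported here.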

Additional observations from a re-analysis of the deposited data

Results flagged for a closer look

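Syt5 was singled out because its fractions stood in opposite order at P1 and P4. It was 8.77 FPKM in P1 pHes1_ENC and 1.55 in P1 pHes1_EPC, and 0.812 in P4 pHes1_ENC and 1.87 in P4 pHes1_EPC. The difference between the fractions at P4 minus that at P1 was 2.60 on the log2 scale. The Cufflinks intervals of the fractions were apart at both ages, but with 1 library in each group the difference was not tested.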

How the results depend on the processing

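No called value changed direction under the alternatives run, and 100 of the recomputed counts and medians stayed close to the reported ones, while 10 medians and 6 counts did not. With a pseudocount of 0.1, without a pseudocount, and among the 43 genes that reached 1 FPKM in the higher library, the median difference at P1 was -2.22, -2.28 and -1.85. At P4 the median was -1.58 with a pseudocount of 0.1, -1.75 without one, -1.42 after rescaling to the same total with or without haemoglobin genes, and -1.40 after quantile normalization. The number higher in pHes1_EPC at P4 was 6 with a pseudocount of 0.1 and also 6 without one. The number lower at P4 than at P1 in pHes1_EPC was 1 with a pseudocount of 0.1, 3 without one, and 1 after rescaling to the same total with or without haemoglobin genes, where the median was 0.17 in both cases. The cause was not tested. Rescaling to the same total moved the median of the expressed genes at P4 from 0.15 to -0.09, and that of pHes1_EPC across the ages from 0.17 to -0.10. Counts taken as close could still move. The number higher at P4 than at P1 in pHes1_EPC was 10 after rescaling to the same total, in place of 13. In pHes1_ENC 11 genes were higher and 9 lower at P4. These counts were 11 and 12 with a pseudocount of 0.1, 11 and 13 without one, and 10 and 11 after rescaling to the same total. Which direction held more genes in pHes1_ENC thus depended on the setting. Calls of single genes were followed under 7 alternatives, namely pseudocounts, scalings and summed lines. Of the 32 genes lower in pHes1_EPC at P1, 31 kept their call (Rab3b was the exception), as did all 27 lower at P4. Summing lines could not change a call, since each of these genes has a single line. No paired analysis was possible because each group has 1 library. The median half-width of the intervals was 4.74% to 6.38% of the FPKM for presynaptic genes at 10 or more and 28.4% to 38.6% for those below 1.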
